A study of Mus musculus with 22 samples.

Results

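Acid-base and ammonia genes were taken as the rows of the gene count table with the symbols Car2, Car4, Car12, Car14, Slc9a3, Slc4a4, Glud1 and Slc38a3, which are 8 of 32858 genes. All 8 were found once each and all 8 were among the 17131 genes with enough counts to be tested. Whole-kidney poly(A) RNA had been sequenced from 22 male C57Bl6/J mice aged 8 to 10 weeks, to ask how KW6002 (istradefylline, an adenosine receptor antagonist) alters the renal response to cisplatin, a platinum anticancer drug that injures the kidney. The vehicle group held 5 mice, given the carrier only. The KW6002 group held 6 mice, injected daily with 3 mg/kg KW6002 from day -5 to day 7. The cisplatin group held 5 mice, given 6 daily injections of 3 mg/kg cisplatin and killed 72 hours after the last one. The cisplatin plus KW6002 group held 6 mice given both drugs on those schedules. The study's account of the kidney sequencing gives these schedules and names no transgene or tumor for the mice. A figure legend of the study instead places kidney sequencing values in tumor-bearing mice. In these data 1 kidney library was read per mouse.

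The kidney reclaims filtered bicarbonate and makes new bicarbonate, and both tasks rest largely on the proximal tubule. There, protons leave the cell through the apical sodium-proton exchanger NHE3 (Slc9a3), membrane carbonic anhydrases facing the lumen (Car4, Car14) and the cytosolic enzyme (Car2) interconvert carbon dioxide and bicarbonate, and bicarbonate leaves toward the blood through the cotransporter NBCe1 (Slc4a4). New bicarbonate comes from glutamine, which enters through the basolateral carrier SNAT3 (Slc38a3) and is broken down in mitochondria, where glutamate dehydrogenase (Glud1) acts, releasing ammonium for the urine. Car12 encodes a further membrane carbonic anhydrase, found on the basolateral side of tubule cells.

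RefSeq start sites (GRCm38.p6) were on hand for 6 of the 8 genes, with 7 promoters in all since Slc4a4 has 2 start sites. The 250 bases before each start were searched on both strands for the E-box CACGTG, the HNF1 core GTTAAT, the AP-1 motif TGANTCA and the antioxidant response element TGACNNNGC, none of which contains another. Only Slc9a3 held a match, an E-box from base -87 to base -82 counted back from the start, a motif that 6.02% of 32851 promoters hold. The HNF1 core is in 6.43% of these promoters, the AP-1 motif in 6.75% and the antioxidant response element in 10.2%. Below are the stretches of Slc9a3, with its E-box in capitals, and for comparison those of Car4 (the gene furthest below vehicle after cisplatin) and Glud1 (a gene above it), which hold no match and so no capitals. All 3 lie on the + strand, Slc9a3 at chr13:74121163-74121412, Car4 at chr11:84957504-84957753 and Glud1 at chr14:34310477-34310726.
Slc9a3: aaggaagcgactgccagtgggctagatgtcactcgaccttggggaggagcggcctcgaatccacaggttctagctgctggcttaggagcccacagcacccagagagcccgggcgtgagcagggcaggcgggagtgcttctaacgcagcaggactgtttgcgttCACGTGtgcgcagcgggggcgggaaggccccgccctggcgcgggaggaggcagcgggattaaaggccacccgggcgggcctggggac
Car4: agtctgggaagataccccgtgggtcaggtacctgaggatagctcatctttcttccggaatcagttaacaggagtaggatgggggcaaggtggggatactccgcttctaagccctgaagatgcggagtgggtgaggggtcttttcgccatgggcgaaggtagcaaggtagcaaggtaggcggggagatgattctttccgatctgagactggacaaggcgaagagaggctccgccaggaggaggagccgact
Glud1: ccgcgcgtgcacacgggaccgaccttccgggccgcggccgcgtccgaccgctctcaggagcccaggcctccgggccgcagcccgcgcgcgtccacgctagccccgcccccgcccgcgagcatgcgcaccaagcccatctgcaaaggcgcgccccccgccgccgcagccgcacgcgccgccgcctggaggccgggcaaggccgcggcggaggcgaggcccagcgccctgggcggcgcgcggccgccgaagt
The letters differ most in base composition, with 56.4% G and C for Car4, 67.6% for Slc9a3 and 82.0% for Glud1. A match is a run of letters only, and its use by a factor was not measured.

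Libraries held 26471762 to 40510754 counts, median 32721214.5, and the lowest count of any of the 8 genes in any library was 328 (Car4), so counting error was small beside the spread between mice. Levels are given as CPM, counts scaled to library size by the trimmed mean of M values (TMM). Proximal tubule markers identified the tissue: the summed level of 10 such genes (Lrp2, Slc34a1 and others) was 37215 to 41546 CPM in vehicle kidneys. The mice carried label numbers of 2 series: 3 vehicle and 3 KW6002 animals had numbers in the 300s, and the rest, including every animal given cisplatin, had numbers in the 500s. For that reason the contrasts of the 8 genes with vehicle are also given within the 500s, where 2 vehicle and 3 KW6002 mice remain. Log2 fold changes of other genes and markers, and those of both drugs against KW6002, are given over both series only. Log2 fold changes and adjusted p-values come from the quasi-likelihood test of edgeR, with Benjamini-Hochberg adjustment over all 17131 genes.

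Cisplatin lowered 5 of the 8 genes and raised 2. The 5 lower genes were Car4, Car14, Slc9a3, Car12 and Slc4a4, by 1.89- to 13.7-fold, and the 2 higher genes were Slc38a3 (5.66-fold) and Glud1 (2.32-fold). Car2 did not pass the test. These 7 of 8 are to be read against a background in which 70.5% of all tested genes passed at an adjusted p below 0.05, 34.6% higher and 35.9% lower. At an adjusted p below 0.01 with at least a doubling or halving, 6 of 8 passed against 24.1% of all genes, and in 7 of 8 the cisplatin and vehicle mice did not overlap, against 55.3% of all genes. The median log2 fold change of the 8 was -1.12, beside -0.01 over all tested genes. In whole kidney RNA fewer cells of a type and less RNA per cell cannot be told apart.

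**Figure D1:**
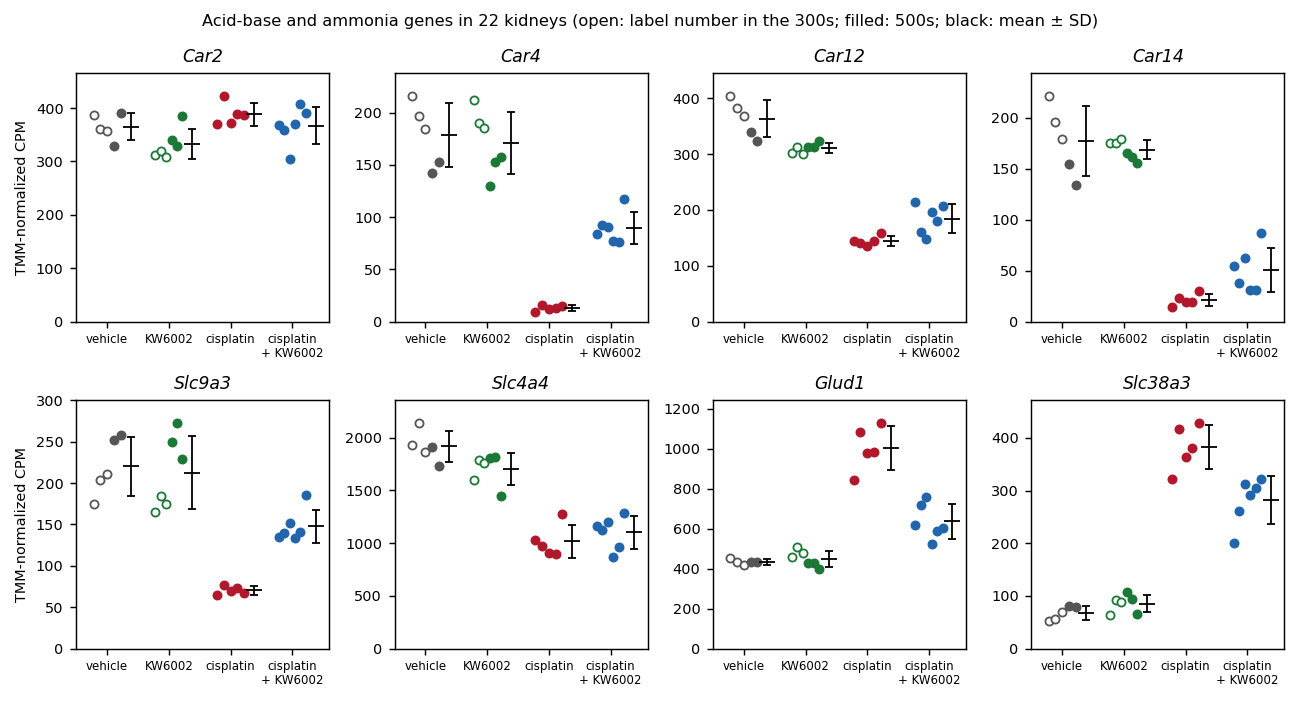
TMM-normalized CPM (vertical axis, from 0) of each gene in every kidney, by group, with the mean ± SD in black. Open points are mice numbered in the 300s and filled points those in the 500s. Car4, Car14 and Slc9a3 are low in cisplatin mice and intermediate with KW6002 added, Glud1 and Slc38a3 are high in cisplatin mice, and Car2 is level across groups.

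Among the carbonic anhydrases, Car4 changed most. Car4 (ENSMUSG00000000805, chr11:84957786-84966044, + strand) encodes the lipid-anchored enzyme of the tubule brush border. Vehicle kidneys had 216, 197, 184, 142 and 152 CPM of Car4. The cisplatin kidneys had 8.74, 16.1, 12.1, 13.1 and 14.8 CPM. KW6002 kidneys ranged from 129.7 to 212 CPM around a median of 171. With both drugs Car4 ranged from 75.7 to 117 CPM around a median of 87.4. All 5 cisplatin values therefore lay below every other mouse, and all 6 co-treated values lay between the cisplatin mice and the untreated ones without touching either. The group means were 178 ± 30.8 (SD, n = 5) in vehicle, 171 ± 29.7 (n = 6) with KW6002, 13.0 ± 2.83 (n = 5) with cisplatin and 89.6 ± 15.1 CPM (n = 6) with both. Relative to vehicle, cisplatin gave a log2 fold change of -3.78 ± 0.17 (SE, adjusted p = 1.02e-14), the 211th lowest of 17131 genes, and -3.51 within the 500s. Adding KW6002 to cisplatin raised Car4 6.91-fold (log2 fold change 2.79 ± 0.16, adjusted p = 7.37e-12), the 90th largest increase. Car4 in the co-treated mice was still 1.99-fold below vehicle (log2 fold change -0.99 ± 0.14, adjusted p = 3.67e-06), or -0.72 within the 500s.

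Car14 (ENSMUSG00000038526, chr3:95897768-95904691, - strand), a transmembrane enzyme with its active site outside the cell, followed the same order of group means. Vehicle kidneys had 221, 196, 179, 155 and 134 CPM. In the cisplatin kidneys it was 14.2, 22.8, 19.3, 19.3 and 30.1 CPM. KW6002 mice ranged from 155 to 179 with a median of 170.1 CPM, and co-treated mice from 30.9 to 86.5 with a median of 46.2 CPM. Relative to the group mean, the co-treated mice spread more widely than any other group for this gene (coefficient of variation 42.9%). In CPM the vehicle mice spread more (SD 34.4 against 21.7 in co-treated mice). The lowest co-treated library, at 30.9 CPM, was only just above the highest cisplatin library, at 30.1 CPM. Cisplatin lowered Car14 8.37-fold (log2 fold change -3.07 ± 0.24, adjusted p = 1.22e-10, and -2.77 within the 500s). Against cisplatin alone, co-treatment raised it 2.39-fold (log2 fold change 1.26 ± 0.22, adjusted p = 5.44e-05), to a level still below vehicle (log2 fold change -1.81 ± 0.22, adjusted p = 2.35e-07, and -1.51 within the 500s). Exons of Car14 overlap those of Aph1a, on the opposite strand, over 445 bases. Aph1a was read at 21.8 to 32.9 CPM over all 22 kidneys with a log2 fold change of -0.01 ± 0.09 after cisplatin (adjusted p = 0.907).

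Car12 (ENSMUSG00000032373, chr9:66713686-66766845, + strand) was 404, 382, 368, 339.01 and 322 CPM in vehicle kidneys and 145, 140.6, 136, 143 and 158 CPM after cisplatin. KW6002 mice had between 300.1 and 323 CPM, median 312, and co-treated mice between 148 and 215 CPM, median 188. The untreated and cisplatin-exposed mice did not overlap, whereas the co-treated group overlapped with cisplatin alone at its lower end. Cisplatin lowered Car12 2.51-fold (log2 fold change -1.33 ± 0.08, adjusted p = 2.41e-12, and -1.20 within the 500s). Co-treatment raised it over cisplatin 1.28-fold (log2 fold change 0.35 ± 0.08, adjusted p = 0.000624), which left it 1.97-fold below vehicle (log2 fold change -0.98 ± 0.08, adjusted p = 5.37e-10, and -0.84 within the 500s).

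Car2 (ENSMUSG00000027562, chr3:14886273-14900770, + strand), the cytosolic enzyme shared by proximal tubule, intercalated cells and red blood cells, was 387, 361, 356, 328 and 391 CPM in vehicle kidneys and 369.5, 423, 373, 389 and 387 CPM after cisplatin. KW6002 mice ranged from 308 to 385 CPM with a median of 324, and co-treated mice from 305 to 407 CPM with a median of 369. Every pair of groups overlapped. The log2 fold change with cisplatin was 0.09 (95% interval -0.06 to 0.24, adjusted p = 0.27), and with KW6002 added to cisplatin it was -0.08 (95% interval -0.22 to 0.06, adjusted p = 0.324). Both drugs against vehicle gave 0.01 (95% interval -0.13 to 0.15, adjusted p = 0.928), and within the 500s the values against vehicle were 0.10 with cisplatin and 0.03 with both drugs. This outcome depends on scaling: with library size alone, which puts the median of all genes at 0.20 and not -0.01, Car2 was 0.31 above vehicle on the log2 scale (adjusted p = 0.000582). Markers of red blood cells were lower after cisplatin in 6 of 6 tested genes, their 7 listed genes summing to 138 to 461 CPM in vehicle, 128 to 421 with KW6002, 4.69 to 16.6 with cisplatin and 23.9 to 43.7 with both. That sum includes Slc4a1, which intercalated cells also hold, with means of 62.8 CPM in vehicle, 8.39 with cisplatin and 36.3 with both. Slc4a1 was the 1 of 6 tested red blood cell genes that rose when KW6002 was added. The part of red blood cells in the level of Car2 was not tested.

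Slc9a3 (ENSMUSG00000036123, chr13:74121457-74169442, + strand), the exchanger NHE3 whose promoter carries the E-box shown above, was 175, 203, 211, 253 and 259 CPM in vehicle kidneys. After cisplatin it was 64.5, 77.3, 69.4, 73.4 and 67.1 CPM, the tightest group for this gene. KW6002 mice ranged from 165 to 273 CPM, median 207, and co-treated mice from 133 to 186 CPM, median 139.9. The cisplatin mice lay below all others, and the co-treated mice lay above every cisplatin mouse, with only the highest of them reaching into the vehicle range. Cisplatin lowered Slc9a3 3.13-fold (log2 fold change -1.65 ± 0.13, adjusted p = 1.7e-10, and -1.87 within the 500s), and co-treatment raised it over cisplatin 2.10-fold (log2 fold change 1.07 ± 0.13, adjusted p = 2.55e-07). It remained 1.49-fold below vehicle (log2 fold change -0.58 ± 0.12, adjusted p = 0.000352), or -0.79 within the 500s.

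Slc4a4 (ENSMUSG00000060961, chr5:88886818-89239653, + strand), the basolateral exit for bicarbonate, had the highest counts of the 8 genes. The vehicle values were 1933, 2141, 1868, 1916 and 1732.5 CPM, and those after cisplatin 1028, 971, 907, 898 and 1279.5 CPM. KW6002 kidneys ranged from 1448 to 1817 CPM, median 1776, and co-treated kidneys from 869.8 to 1286 CPM, median 1144. Both groups given cisplatin lay below all vehicle mice and overlapped each other. Cisplatin lowered Slc4a4 1.89-fold (log2 fold change -0.92 ± 0.11, adjusted p = 6.25e-08, and -0.85 within the 500s). Adding KW6002 gave 0.12 over cisplatin (95% interval -0.09 to 0.32, adjusted p = 0.336), and the co-treated mice were 1.74-fold below vehicle (log2 fold change -0.80 ± 0.10, adjusted p = 4.63e-07, and -0.73 within the 500s). Counts per gene do not separate the transcripts from the 2 start sites.

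Glud1 (ENSMUSG00000021794, chr14:34310727-34345265, + strand), the mitochondrial glutamate dehydrogenase, went the other way. Vehicle kidneys were close together at 456, 432, 418, 432 and 432 CPM. Cisplatin kidneys reached 846, 1085, 981, 986 and 1131 CPM. KW6002 kidneys ranged from 398 to 509.8 CPM, median 444, and co-treated kidneys from 524.98 to 760.1 CPM, median 611. The 3 levels (untreated, co-treated and cisplatin alone) did not overlap. Cisplatin raised Glud1 2.32-fold (log2 fold change 1.21 ± 0.09, adjusted p = 4.95e-11, and 1.21 within the 500s), co-treatment lowered it 1.58-fold from there (log2 fold change -0.66 ± 0.09, adjusted p = 9.19e-07), and it stayed 1.47-fold above vehicle (log2 fold change 0.55 ± 0.09, adjusted p = 1e-05, and 0.56 within the 500s).

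Slc38a3 (ENSMUSG00000010064, chr9:107650634-107669530, - strand), the glutamine carrier, was 52.4, 55.9, 70.2, 80.4 and 78.8 CPM in vehicle kidneys and 322.5, 416, 364, 381 and 429 CPM after cisplatin. KW6002 mice ranged from 64.1 to 107 CPM, median 90.7, and co-treated mice from 200.2 to 321.7 CPM, median 298. All 11 mice given cisplatin, with or without KW6002, exceeded all 11 that were not, and the highest co-treated mouse lay just under the lowest mouse on cisplatin alone. Cisplatin raised Slc38a3 5.66-fold (log2 fold change 2.50 ± 0.16, adjusted p = 2.02e-12, and 2.26 within the 500s). With KW6002 added it was 1.36-fold below cisplatin alone (log2 fold change -0.44 ± 0.14, adjusted p = 0.0102) and 4.17-fold above vehicle (log2 fold change 2.06 ± 0.15, adjusted p = 1.03e-10, and 1.82 within the 500s).

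Adding KW6002 to cisplatin thus raised 4 of the 8 genes (Car4, Car14, Slc9a3, Car12) and lowered 2 (Glud1, Slc38a3), while Slc4a4 and Car2 did not pass the test. In this contrast 55.8% of all tested genes passed, 28.6% higher and 27.2% lower. With a doubling or halving at an adjusted p below 0.01, 3 of 8 passed (Car4, Car14, Slc9a3, all higher) against 10.3% of all genes in either direction, and 5 of 8 did not overlap between the groups, against 37.8%. The median log2 fold change was 0.23 over the 8 and 0.01 over all genes. Against vehicle, the co-treated mice still differed in 7 of 8 genes (background 59.7%), each on the same side of vehicle as with cisplatin alone, a contrast that shares its control mice. At a doubling or halving and an adjusted p below 0.01, 2 of 8 passed (Car14 and Slc38a3) against 13.4% of all genes. That count was 4 without vehicle replicate 5, without co-treated replicate 6 or with the replicate number as a block, since Car4 (-0.99) and Car12 (-0.98) lie at the limit. No share over all genes is given for those fits. Against KW6002 alone they differed in 7 of 8 (background 58.1%), with Glud1 and Slc38a3 higher, the others lower, and Car2 not past the test (log2 fold change 0.14, adjusted p = 0.0668). Car2 passed there at a log2 fold change of 0.19 without KW6002 replicate 6 (adjusted p = 0.0146) and also at 0.19 without co-treated replicate 3 (adjusted p = 0.0102).

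**Figure D2:**
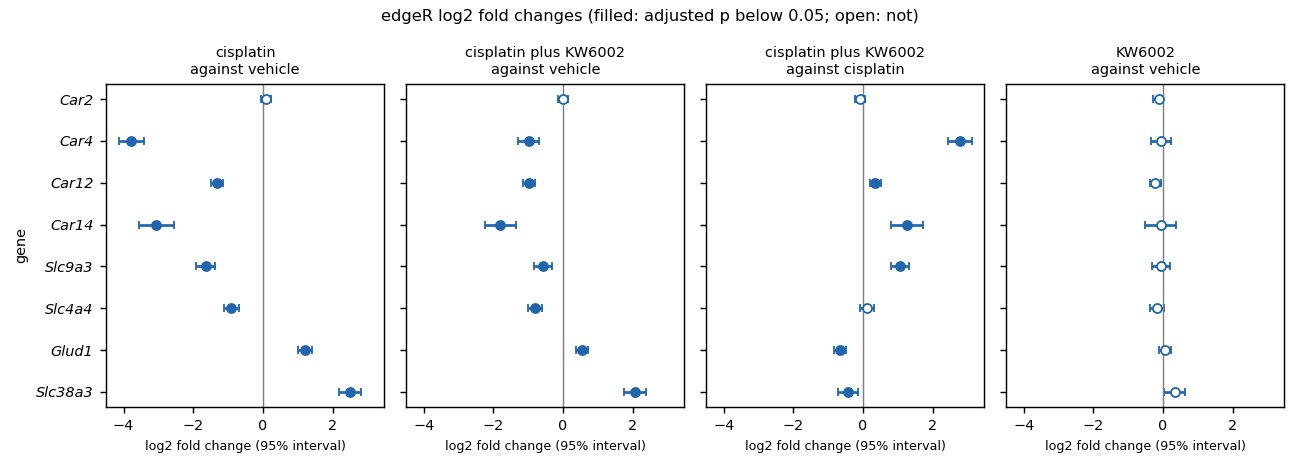
Log2 fold change of each gene with its 95% interval (horizontal axis) in 4 contrasts, filled where the adjusted p was below 0.05. Car4 moves from -3.78 with cisplatin to -0.99 with both drugs, Slc38a3 only from 2.50 to 2.06, and every point for KW6002 alone is open.

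KW6002 without cisplatin moved none of the 8 genes past the test, in a contrast where 0.0175% of all genes passed in edgeR. DESeq2 also gave 0 of 8. In edgeR 2 of 8 had an unadjusted p below 0.05, a count for which no share over all genes was taken. The 2 were Car12 (log2 fold change -0.23, adjusted p = 0.288) and Slc38a3 (log2 fold change 0.34, adjusted p = 0.366). The KW6002 and vehicle mice overlapped for all 8 genes, against 1.38% of all genes that did not overlap. The widest 95% interval was that of Car14, from -0.51 to 0.37 on the log2 scale. Within the 300s the log2 fold change of Car12 was -0.33 and within the 500s -0.07, and that of Slc38a3 was 0.46 and 0.16. Over the 8 genes the values ran from -0.33 to 0.46 within the 300s and from -0.11 to 0.16 within the 500s.

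The effect of KW6002 differed between cisplatin-treated and untreated mice for 6 of the 8 genes by the interaction term (background 42.7% of all genes). Its size on the log2 scale was 2.85 ± 0.21 for Car4 (adjusted p = 1.59e-09), 1.33 ± 0.31 for Car14 (adjusted p = 0.00132), 1.12 ± 0.18 for Slc9a3 (adjusted p = 2.38e-05) and 0.58 ± 0.11 for Car12 (adjusted p = 0.000233). It was negative for Glud1 (-0.72 ± 0.12, adjusted p = 6.13e-05) and Slc38a3 (-0.78 ± 0.20, adjusted p = 0.00322). Slc4a4 gave 0.29 (95% interval -0.01 to 0.58, adjusted p = 0.107) and Car2 0.05 (95% interval -0.15 to 0.26, adjusted p = 0.693). The Slc38a3 term was -0.60 within the 500s, short of the threshold at an adjusted p of 0.0509. For Slc4a4 the term passed without cisplatin replicate 5 (0.38, adjusted p = 0.019) and without co-treated replicate 4 (0.35, adjusted p = 0.0403).

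Among mice not given cisplatin, 2 of the 8 genes differed between label numbers in the 500s and the 300s, a comparison chosen after the values were seen, in which 11.5% of all genes passed. Car4 was lower in the 500s (log2 difference -0.42 ± 0.12, adjusted p = 0.02), at 142 to 152 CPM against 184 to 216 in vehicle mice and at 129.7 to 158 against 185 to 212 in KW6002 mice. Slc9a3 was higher in the 500s (0.46 ± 0.08, adjusted p = 0.000623), at 253 to 259 CPM against 175 to 211 in vehicle and 229 to 273 against 165 to 184 in KW6002 mice. Neither gene's ranges overlapped between the series in either group. Those of Car14 were also apart in both groups, lower in the 500s, but its log2 difference of -0.28 ± 0.21 did not pass (adjusted p = 0.433). What the label numbers stand for is not given. The differences were smaller than the cisplatin effect on the same genes, but nearer in size to some changes with both drugs against vehicle. Those were -0.99 for Car4 (-0.72 within the 500s) and -0.58 for Slc9a3 (-0.79 within the 500s).

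Per kilobase of exon, which allows levels to be compared between genes, Slc4a4 led in vehicle kidneys at 177 ± 13.6 CPM per kb and Slc38a3 came last at 12.8 ± 2.44. Between them stood Car2 (151), Glud1 (103), Car4 (90.7), Car14 (69.6), Car12 (47.8) and Slc9a3 (40.0 CPM per kb). Of the 7 neighbouring pairs in this order only Car2 with Glud1 and Slc9a3 with Slc38a3 had ranges that did not overlap. After cisplatin Glud1 led at 239 ± 26.1, followed by Car2 (160.3), Slc4a4 (94.0), Slc38a3 (72.5), Car12 (19.0), Slc9a3 (12.8), Car14 (8.31) and Car4 (6.59 CPM per kb), and only the last 3 overlapped with a neighbour. Slc38a3 thus moved from the eighth to the fourth place and Car4 from the fourth to the eighth. In co-treated kidneys Car2 (151) and Glud1 (151) overlapped at the top, then came Slc4a4 (101.9), Slc38a3 (53.4), Car4 (45.6), Slc9a3 (26.8), Car12 (24.3) and Car14 (19.9 CPM per kb). Dividing by the longest transcript instead placed Car4 above Glud1 in vehicle and KW6002 mice and Slc9a3 last in co-treated mice.

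**Figure D3:**
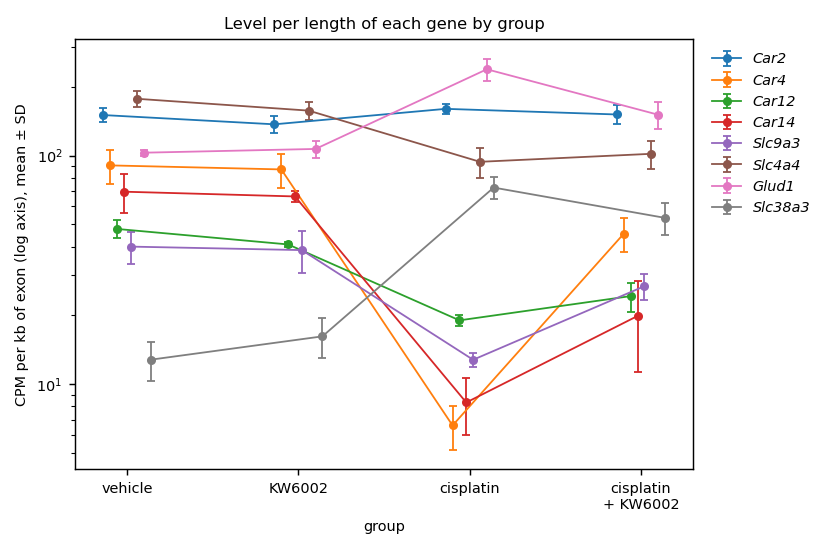
Mean ± SD level of each gene per kb of exon (log axis) in the 4 groups, joined by lines to guide the eye. Slc38a3 and Glud1 rise from KW6002 to cisplatin while Car4, Car14, Slc9a3 and Car12 fall, and the order in vehicle and KW6002 mice is the same.

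The genes nearest in pattern were found by the root mean square difference of centered log2 CPM over the 22 kidneys. For Car4 they were F13b (0.279) and Apom (0.286), beside a spread of Car4 around its own mean of 1.51. F13b went from 223 CPM in vehicle to 20.4 with cisplatin and 98.0 with both. Car14 was nearest to Pbld1 (0.232) and C8g (0.233), Slc9a3 to Cbs (0.150) and Ankrd13c (0.185), Car12 to Tcn2 (0.117) and Vegfa (0.123), and Slc4a4 to Itpr2 (0.123) and Dcaf8 (0.124). Glud1 was nearest to Hyal1 (0.127) and Tacc1 (0.137), and Slc38a3 to Ier2 (0.264) and Serpina1a (0.275). For Car2 the nearest, Nup50 (0.0970) and Hspa14 (0.0983), lay almost as far off as the whole spread of Car2 (0.132), so that likeness is weak.

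Of 58 other genes of acid-base and ammonia handling, 54 could be tested. Cisplatin raised 16 and lowered 26 of the 54, and KW6002 added to cisplatin raised 18 and lowered 19, with median log2 fold changes of -0.16 and 0.05 beside -0.01 and 0.01 over all genes. Of all tested genes 34.6% were higher and 35.9% lower with cisplatin, and 28.6% and 27.2% with KW6002 added, so these counts are to be read against those shares, as are those of each list below. Where 2 log2 changes are given below, the first is cisplatin against vehicle and the second both drugs against cisplatin. KW6002 alone passed for 0 of 54 in edgeR (0.0175% of all genes), with 13 at an unadjusted p below 0.05, and for 4 of 58 in DESeq2. No share over all genes was taken for the unadjusted and DESeq2 counts, so they are not read as results about these genes. Those 4, named after their values were seen, were Slc6a19, Atp6v1g3, Atp6v0d2 and Car5b, with edgeR log2 fold changes of -0.54, -0.33, -0.35 and -0.37.

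The genes of ammonia formation were mixed, with 5 of 9 tested raised by cisplatin and 2 lowered. Pck1, the gluconeogenic carboxykinase that uses the carbon left from glutamine, had 2960.3 ± 555 CPM in vehicle, 6149.98 ± 1196 with cisplatin and 2499 ± 1013 with both. Its log2 fold changes were 1.05 ± 0.21 (adjusted p = 0.000134) and then -1.30 ± 0.20 (adjusted p = 1.09e-05). Slc25a22, a mitochondrial glutamate carrier, rose by 1.66 ± 0.12 and then fell by 0.54, and Gpt, an alanine aminotransferase, rose by 1.25 ± 0.16. Gls2, the liver-type enzyme of glutamine breakdown, was at 2 to 23 counts in vehicle, KW6002 and cisplatin libraries and was not tested.

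In glutamine and ammonia transport cisplatin raised 3 of 8 and lowered 4. Rhcg, the ammonia channel of the collecting duct, had 125 ± 7.73 CPM in vehicle, 32.3 ± 6.74 with cisplatin and 66.9 ± 4.92 with both (log2 fold changes -1.96 ± 0.10, adjusted p = 4.87e-14, and 1.05 ± 0.09, adjusted p = 3.49e-09). Its basolateral relative Rhbg fell with cisplatin (-0.77 ± 0.12, adjusted p = 5.9e-06) and fell again when KW6002 was added (-0.41 ± 0.12, adjusted p = 0.00503). Slc6a19, the brush border carrier of neutral amino acids, fell by 1.82 and rose by 0.89 on the log2 scale. Slc1a5, a glutamine exchanger, rose by 0.54 and fell by 1.05.

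Of 10 bicarbonate and anion transporters 7 were lower after cisplatin and 1 was higher, in a contrast where 70.5% of all genes passed and 35.9% were lower, and KW6002 added to cisplatin raised 5 and lowered 2. Slc4a1, the anion exchanger of red cells and acid-secreting intercalated cells, had 62.8 ± 13.3 CPM in vehicle, 8.39 ± 4.68 with cisplatin and 36.3 ± 7.65 with both (log2 fold changes -2.91 ± 0.25 and 2.12 ± 0.24, adjusted p = 4.32e-10 and 1.15e-07). Slc26a4, the pendrin of base-secreting intercalated cells, changed by -1.52 and 1.03. Among sodium-proton exchangers and their scaffolds 4 of 6 fell and 1 rose, led by Slc9a8 (-2.19 ± 0.19, adjusted p = 7.25e-10). The NHE3 scaffold Slc9a3r1 went from 273 ± 16.5 CPM in vehicle to 152 ± 19.2 with cisplatin and 322 ± 18.4 with both, so that KW6002 raised it by 1.09 ± 0.07 over cisplatin (adjusted p = 3.39e-11). Slc9a4 fell by 0.83 when KW6002 was added, from 67 to 124 counts per library to 37 to 59.

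Of 7 proton pump genes 3 fell and 1 rose with cisplatin. The proton-potassium pump subunit Atp4a fell by 3.40 and rose by 1.80 on the log2 scale (adjusted p = 4.69e-15 and 5.21e-10), and Atp6v1b1, a subunit of the vacuolar pump of intercalated cells, fell by 1.44 and rose by 0.51. Atp12a moved the opposite way, with 41 to 76 counts per cisplatin library and 2 to 15 with both drugs. Of the 7 other carbonic anhydrases tested 4 fell and 2 rose. Car9, a membrane enzyme, fell by 2.31 (adjusted p = 2.49e-08), as did Car3 by 1.98 (adjusted p = 0.013), a cytosolic form abundant in fat and muscle whose vehicle libraries held from 2777 to 18021 counts. With KW6002 added, the mitochondrial Car5a rose by 0.93 (adjusted p = 0.0377) and the mitochondrial Car5b fell by 0.74 (adjusted p = 4.11e-08). Of 7 fat markers 1 was lower with cisplatin than in vehicle. With both drugs 5 of 7 were lower than with cisplatin alone, a contrast in which Car3 was -0.39 (adjusted p = 0.627). Summed levels of the fat markers were 158 to 1432 CPM in vehicle, 417 to 835 with cisplatin and 41.3 to 393 with both drugs. The part of fat in these values was not tested.

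Among acid and base sensors and hormones cisplatin raised 3 of 7 and lowered 2. Insrr, an alkali-sensing receptor kinase, had 57.0 ± 5.10 CPM in vehicle, 7.52 ± 2.43 with cisplatin and 17.2 ± 4.02 with both (log2 fold changes -2.92 and 1.20, adjusted p = 1.71e-12 and 3.6e-06). Adcy10, the bicarbonate-stimulated adenylyl cyclase, was at 9 to 22 counts per vehicle library, 1 to 4 per cisplatin library and 5 to 18 with both drugs.

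**Figure D4:**
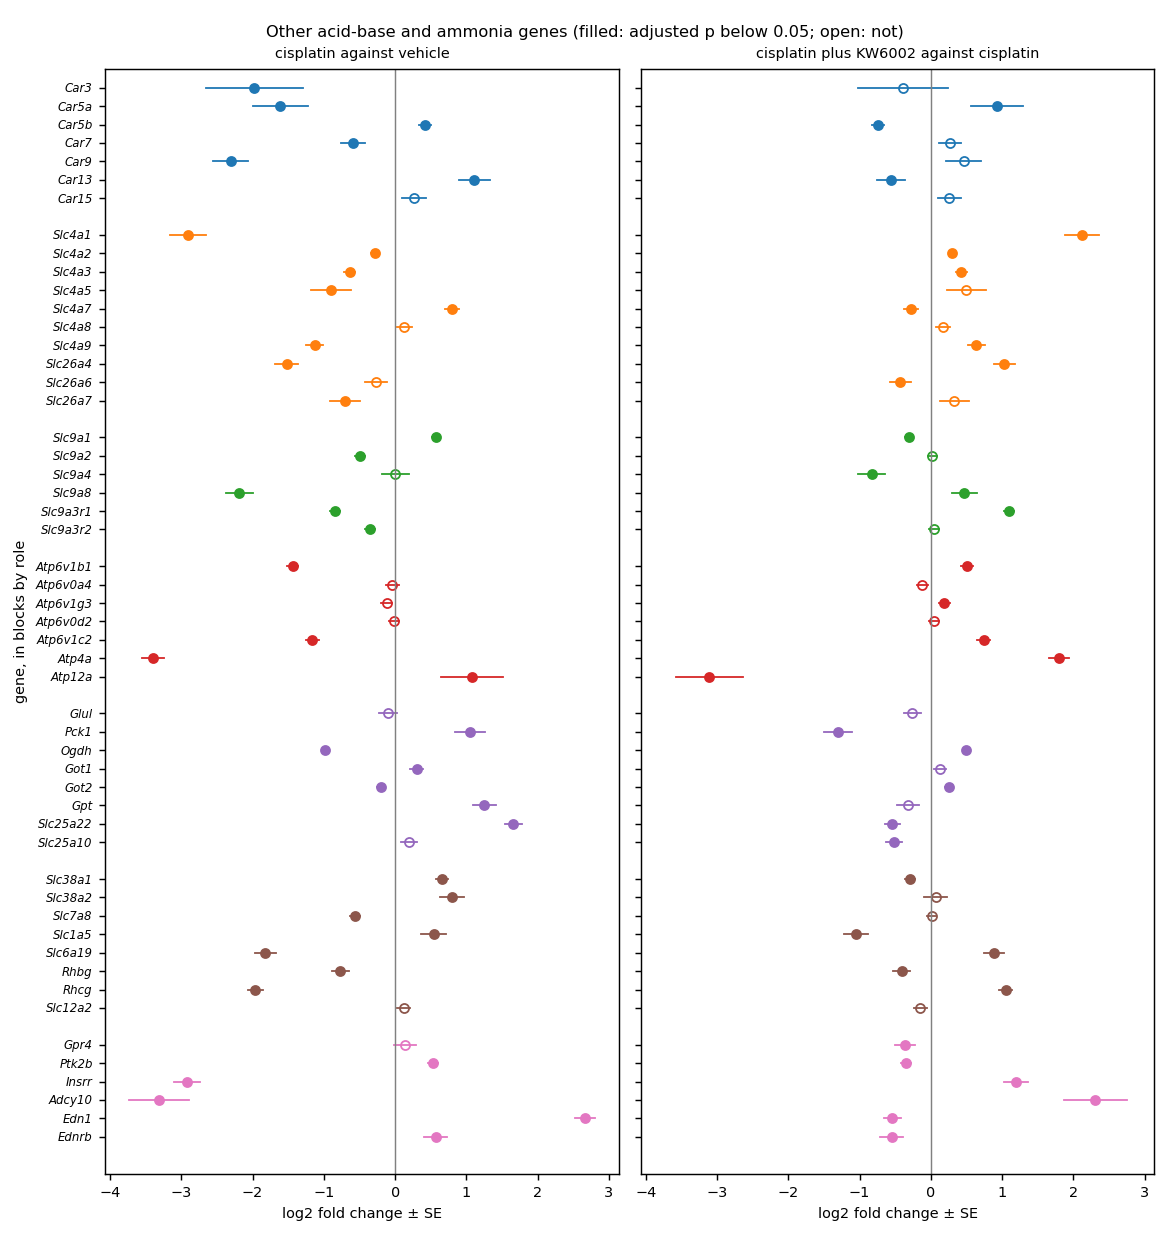
Log2 fold change ± SE (horizontal axis) of other tested acid-base and ammonia genes in blocks by role, for cisplatin against vehicle (left) and both drugs against cisplatin (right), filled where the adjusted p was below 0.05. Blocks from top to bottom are other carbonic anhydrases, bicarbonate and anion transporters, sodium-proton exchangers, proton pumps, ammonia formation, glutamine and ammonia transport, and sensors and hormones. Atp4a, Adcy10, Slc4a1 and Insrr lie far left and then right of 0, and Pck1 the reverse.

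Markers of some of the cell types that hold these genes moved as well. All 10 proximal tubule markers fell with cisplatin and 8 of 10 rose when KW6002 was added, and their summed level was 3139 to 4985 CPM with cisplatin, 8359 to 14265 with both drugs and 37037 to 42718 with KW6002 alone. Over the 10, the median log2 fold change was -2.92 with cisplatin and 1.15 with KW6002 added. Of 7 intercalated cell markers, Slc4a1, Slc26a4 and Atp6v1b1 among them, 5 fell and 5 rose in the same contrasts. With cisplatin Atp6v0d2 (-0.02, adjusted p = 0.816) and Atp6v1g3 (-0.12, adjusted p = 0.204) did not pass. Sums were 546 to 647 CPM in vehicle, 258 to 348 with cisplatin and 391 to 509.9 with both. All of these markers but Foxi1 are also counted in the lists above, so this largely restates those values. All 5 thick ascending limb markers fell (6613 to 10456 CPM summed in vehicle, 2117 to 2445 with cisplatin), and 4 rose when KW6002 was added. Of 7 collecting duct principal cell markers, 1 rose and 2 fell with cisplatin, and 3 rose when KW6002 was added. Their sums were 468 to 797 CPM in vehicle and 690 to 1001 with cisplatin. Fibroblast markers rose with cisplatin in 6 of 7 genes (217 to 447 CPM summed in vehicle, 899 to 1178 with cisplatin). With cisplatin Car4, Car14, Slc9a3, Car12 and Slc4a4 fell along with the proximal tubule markers, whereas Glud1, Slc38a3 and Pck1 rose while those markers fell. When KW6002 was added and 8 of the 10 markers rose, Slc4a4 did not pass (0.12, adjusted p = 0.336). The part of the cell markers in each value was not tested.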

How the data were processed

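Kidney poly(A) RNA of 22 mice was made into TruSeq Stranded mRNA libraries. Per the labels, the authors deposited raw read counts per gene, made with STAR and HTSeq 0.6.1p1 on genome build mm10 after bcl2fastq 2.17.1.14; the strand setting of the counting is not given in the sources used here. Of the table's columns, 66 were not matched to any of the 22 libraries and were unused. Counts were analysed in R 4.3.3 with edgeR 4.0.16 (filterByExpr with a minimum of 10 counts, TMM, quasi-likelihood, 1 mean per group, all 22 libraries), which kept 17131 genes with 99.9% of counts. "Passed" means an adjusted p below 0.05. Standard errors and 95% intervals follow from the F statistic. Simulated counts with known changes were used to test the fit. Gene coordinates are from GENCODE M21 (GRCm38). Nothing in the labels says that a replicate number marks a shared litter, batch or day, though vehicle and KW6002 mice of the same number also share the label series. The genes and lists were chosen with earlier results of these data known, so no list is independent evidence. Named were all 8 genes, up to 2 per list with the largest log2 fold change past the test in cisplatin against vehicle or both drugs against cisplatin, Gls2, Pck1, Rhbg, Rhcg and Slc4a1, and the 2 nearest genes of each of the 8. Some genes that the rule names are not reported here, though the counts over lists include them. Alternatives were DESeq2 1.42.0, other scalings and filters, subsets, covariates, a threshold of 1 on the log2 scale and leaving out each library. P-values test differences between group means against the spread between mice, estimated over the 4 groups. The main fit held no term for the label series.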

Additional observations from a re-analysis of the deposited data

Results flagged for a closer look

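The Slc9a3 level of replicate 6 of the cisplatin plus KW6002 group, 185.761 CPM, stood apart from the other 5 mice of that group, the next of which was at 152 CPM. The gap was 0.639 of the group's range, above the limit of 0.625 for 6 samples. It was the only such value among 32 sets of mice (8 genes in 4 groups), where chance gives about 1 in 20. With each mouse left out in turn, this one included, the log2 fold change of Slc9a3 between both drugs and cisplatin alone was 0.99 to 1.11.

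The KW6002 effect differed between mice given cisplatin and mice not given it, by the interaction term of edgeR, for 6 genes. The log2 difference was 2.85 for Car4, 1.33 for Car14, 1.12 for Slc9a3, 0.58 for Car12, -0.72 for Glud1 and -0.78 for Slc38a3, with the errors and adjusted p-values given above.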

How the results depend on the processing

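For cisplatin against vehicle, the directions of the 8 genes held under every alternative run, and 7 of 8 passed in most of them: with library size alone Car2 passed too, and against a log2 fold change of 1 Slc4a4 (-0.92) did not. Against a log2 fold change of 1 the number of genes past the test was 1 in place of the reported 6 for both drugs against cisplatin, 2 in place of 7 for both drugs against vehicle and also against KW6002, and 1 in place of 6 for the interaction, since that test asks for a larger change. Other alternatives gave 6, 7 to 8, 7 to 8 and 5 to 7 in these contrasts. No shares over all genes are given here for the alternatives. Their counts are therefore not read as results about the 8 genes. Replicate numbers were not taken as pairs: of 31 same-numbered pairs 7 had deviations correlated above 0.1 (range -0.175 to 0.405), and 8 of 22 libraries were closest to their own number. Vehicle and KW6002 mice of the same number also share the label series. With the number as a replicate block, 4 genes in place of 2 at least doubled or halved at an adjusted p below 0.01 for both drugs against vehicle, and Car2 there was -0.03 and against KW6002 0.14 (adjusted p = 0.0379). Leaving out single mice gave 2 to 4 in that first count, 4 without vehicle replicate 5 or without co-treated replicate 6. The signs of small values turned. For KW6002 against vehicle, Car14 was 0.16 and Glud1 -0.04 within the 500s, and leave-outs spanned -0.13 to 0.02 for Car4, -0.15 to 0.03 for Car14 and -0.14 to 0.01 for Slc9a3. For both drugs against vehicle, Car2 was -0.00 with at least 10 counts in every library, -0.04 with the label series as covariate and -0.03 to 0.06 over leave-outs, and its interaction was -0.02 with library size alone and -0.04 within the 500s. The cause was not tested. Library size alone also put Car2 at 0.17 (adjusted p = 0.0399) for both drugs against vehicle and 0.29 (adjusted p = 0.000584) against KW6002.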
